A study of Mus musculus with 9 samples.

Results

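The genes described here encode the zinc metalloproteinases that work at the cell surface and in the extracellular matrix, together with their tissue inhibitors: the matrix metalloproteinases (Mmp), the membrane-anchored ADAM proteases (Adam), the secreted ADAMTS proteases (Adamts) and the tissue inhibitors of metalloproteinases (Timp). Members were chosen by gene symbol alone, as Mmp, Adam or Adamts followed by a number (with a or b after an Mmp or Adam number), or Timp followed by a digit. Of 20405 probe sets with a gene symbol, 77 matched: 22 Mmp, 33 Adam, 18 Adamts and 4 Timp genes, each with 1 probe set. Affymetrix arrays gave the expression of genes in cells sorted from C57Bl6 mouse embryos at E11.5, out of the aorta-gonad-mesonephros region (AGM). The sort used CD144 (VE-cadherin, an endothelial adhesion protein encoded by Cdh5) and CD45 (a phosphatase of blood cells, encoded by Ptprc). EC are the CD144+CD45- cells, HSPC the CD144+CD45+ cells and HC the CD144-CD45+ cells, with 3 arrays each. No genetic change or treatment is named for any group, all 3 share tissue, strain and age, and the labels do not say how many embryos were pooled or whether the 3 samples of a group were separate pools. The p-values therefore rest on the spread among these arrays alone, and that spread may be technical.

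The aorta-gonad-mesonephros region is where blood stem and progenitor cells leave the endothelium of the dorsal aorta, a step in which cells round up and detach from the vessel wall. Most Mmp enzymes are secreted as inactive precursors and cut collagens, gelatins and other matrix proteins, while the membrane-type Mmp enzymes act at the cell surface. ADAM proteases release the outer parts of membrane proteins such as Notch receptors and ligands, growth factors and cytokines, and some ADAM proteins of the testis have no protease activity. ADAMTS proteases cut proteoglycans, procollagens and von Willebrand factor, and the Timp proteins block the active site of many of these enzymes.

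The genes of both sort markers followed the gates, with Cdh5 at 11.70 ± 0.14 (EC), 10.47 ± 0.68 (HSPC) and 5.79 ± 0.65 (HC), and Ptprc at 4.42 ± 0.07, 8.90 ± 0.26 and 9.95 ± 0.10 (log2, mean ± SD, n = 3). Array medians lay between 5.42 and 5.51, and arrays correlated at 0.985 to 0.994 within a group and 0.905 to 0.978 between groups. Endothelial marker genes (8 of 8) and pan-leukocyte marker genes (8 of 8) differed between HC and EC in the direction of the gates. Between HC and EC 4 of 6 mast cell and basophil markers and 1 of 5 megakaryocyte markers were higher in HC, and 0 of 4 erythroid and 0 of 6 epithelial markers were called (limma; 0 of either list at an unadjusted p under 0.05). In HSPC, 1 of 6 epithelial markers, the keratin gene Krt18, was called higher than in EC and HC (8.27 against 6.38 and 6.07). The other epithelial markers were not called in either comparison. The median difference over the 6 markers was 0.04 against EC and 0.01 against HC. The epithelial sum, which includes Krt18, was 8.86 to 9.28 against 8.16 to 8.55 on the other arrays. Of 5 megakaryocyte markers, 2 were higher in HSPC than in EC (Itga2b and Gp9) and 1 higher than in HC (Gp9). The part of these markers in the HSPC results was not tested. Background was set at 4.69, the 95th percentile over 1286 genes of olfactory and vomeronasal receptors, and a group whose mean is at or under that level has only a bound. The arrays of HSPC differed among themselves: the summed level of 8 endothelial markers was 12.84, 11.35 and 12.15 on HSPC replicates 1, 2 and 3 (log2 of the sum), against 13.57 to 13.81 in EC and 8.26 to 8.98 in HC. The summed level of 8 macrophage markers was 11.59, 13.23 and 12.57 on the same arrays.

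Called members were more often lower than higher in HC and in HSPC when set against EC. Between HC and EC only the Adamts calls had a single direction, 6 lower and 0 higher in HC. Lower and higher calls there were 5 and 5 for Mmp, 3 and 4 for Adam, and 2 and 1 for Timp. Each comparison was tested with limma over all 20405 genes, and a gene is called where its Benjamini-Hochberg adjusted p was under 0.05. Between HC and EC, 26 of the 77 members were called, 16 lower and 10 higher in HC, where 27.4% of all genes were called, 12.6% lower and 14.8% higher. Between HSPC and EC, 17 members were called, 15 lower and 2 higher in HSPC, where 16.5% of all genes were called, 7.94% lower and 8.55% higher. After each array was centred on its median, 1405 of 3402 calls over all genes were higher in HSPC than in EC, against 1745 of 3366 without centring. Between HSPC and HC, 13 members were called, 9 lower and 4 higher in HSPC, where 14.6% of all genes were called, 7.61% lower and 7.01% higher. As shares of the 77, the members called lower were 20.8% for HC against EC, 19.5% for HSPC against EC and 11.7% for HSPC against HC. The median difference over the 77 was 0.01, -0.03 and -0.03 in these comparisons, against 0.05, 0.01 and -0.03 over all genes. These comparisons share arrays and are not independent of each other. In sorted bulk samples, fewer cells of a type and less RNA per cell cannot be told apart.

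**Figure D1:**
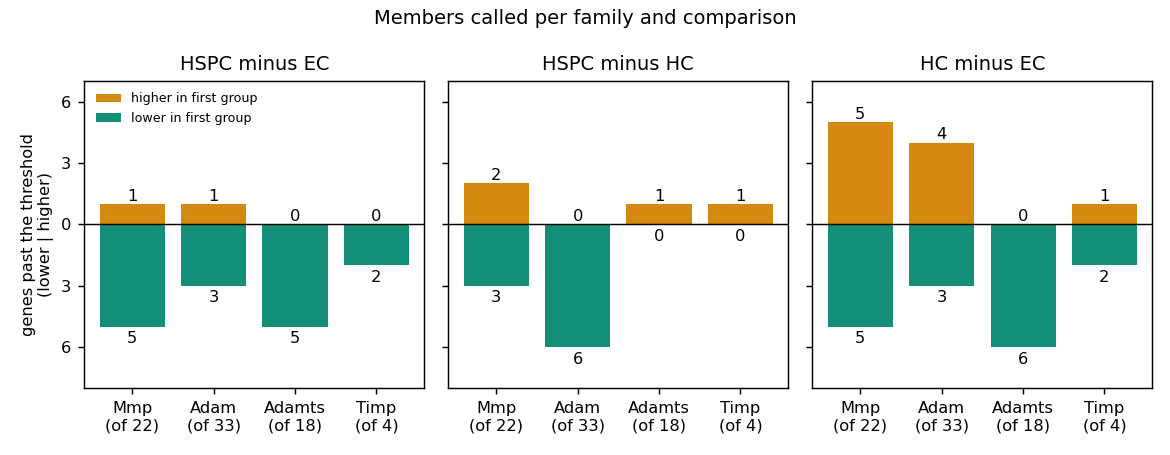
Number of genes past the threshold (adjusted p under 0.05) in each family, with bars above 0 for genes higher in the first group of the comparison and bars below 0 for genes lower in it. Called Adamts genes were all lower in HC and HSPC than in EC, 6 and 5 of 18. Mmp genes were called in both directions between HC and EC, 5 higher and 5 lower of 22. Over all genes, 12.6% were lower and 14.8% higher in HC than in EC, and 7.94% were lower in HSPC than in EC.

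Of the 77 members, 42 had a mean at or under the background level in all 3 groups, where the same held for 34.4% of all genes. Among these were 20 of the 21 Adam genes of testis or little known role, whose exception was Adam3. A total of 49 members were called in no comparison. Of these, 39 were at background everywhere, with values between 2.46 and 4.75, and the other 10 rose above it in at least 1 group. The uncalled members at background were Mmp1a, Mmp1b, Mmp10, Mmp21 and Mmp27; Adam1a, Adam1b, Adam2, Adam4, Adam5, Adam6a, Adam6b, Adam7, Adam11, Adam18, Adam20, Adam21, Adam22, Adam23, Adam24, Adam25, Adam26a, Adam26b, Adam28, Adam29, Adam30, Adam32, Adam34 and Adam39; Adamts3, Adamts6, Adamts8, Adamts13, Adamts14, Adamts15, Adamts16, Adamts19 and Adamts20; and Timp4. Pairs with near-identical copies, such as Mmp1a and Mmp1b or Adam6a and Adam6b, may share probe signal. The 10 uncalled members above background were Mmp7, Mmp11, Mmp17, Mmp20, Mmp23, Mmp24, Adam33, Adamts7, Adamts17 and Adamts18, with values between 4.57 and 6.48 and a lowest adjusted p of 0.0619. Mmp11, a stromelysin first known from stroma, came closest, at 6.48, 5.59 and 6.09 in EC against 5.52, 4.95 and 5.53 in HSPC. Mmp11, Adamts7 and Adamts18 were called lower than in EC under several alternatives. For HSPC against EC, repeated quantile normalization called Mmp11 and Adamts7, and median centring called all 3. Mmp11 was also called there with dim genes left out or without EC replicate 2, and Adamts7 without HSPC replicate 3. For HC against EC, Adamts18 was called after repeated quantile normalization, median centring, array weights, leaving out dim genes or leaving out HC replicate 3, and Mmp11 without EC replicate 2.

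**Figure D2:**
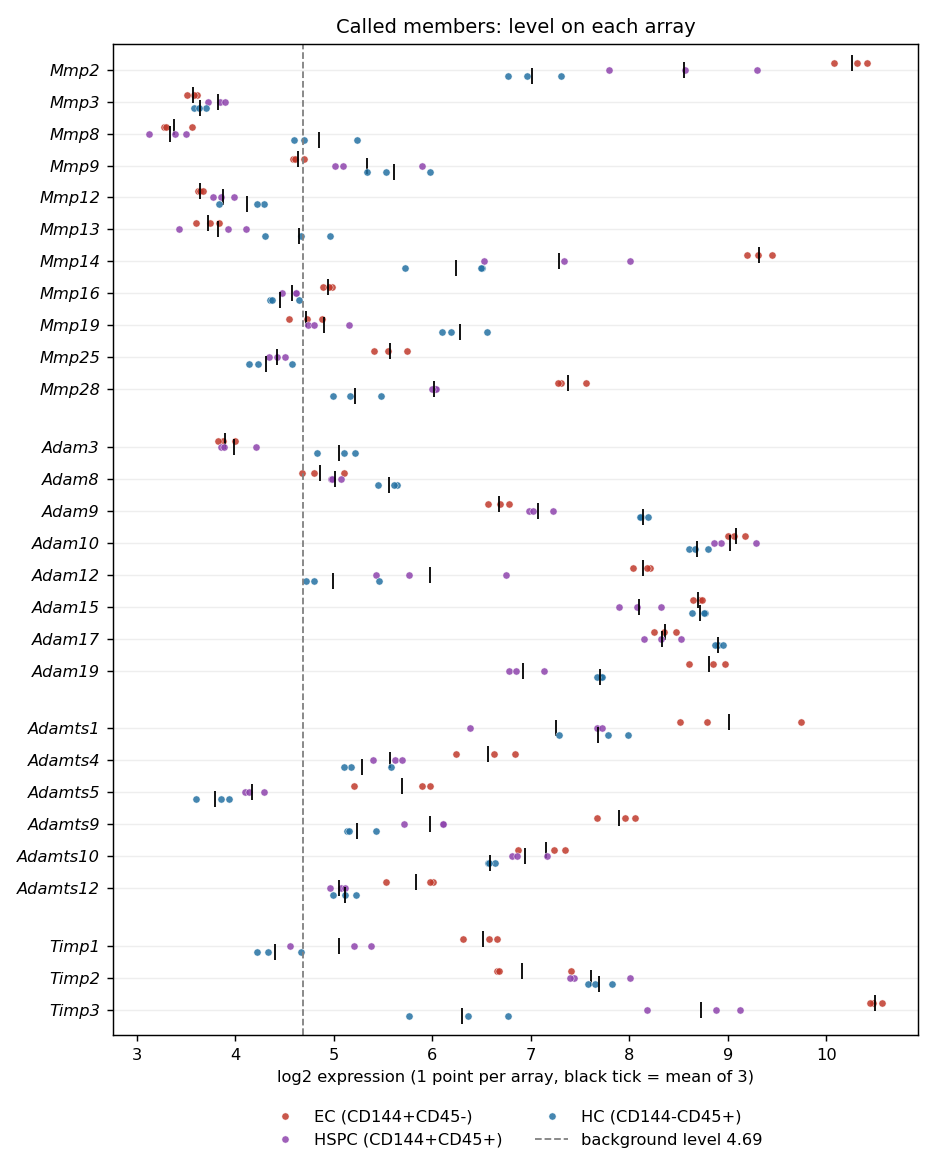
Log2 expression of the 28 called members on each of the 9 arrays (x axis), with 1 row per gene, points coloured by group, black ticks at the group means and a dashed line at the background level of 4.69. Timp3, Mmp2, Mmp14 and Adam12 show EC points to the right of all others, and Adam9 and Mmp19 show HC points to the right; levels of different genes come from different probes and are not comparable.

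A row of 10 Mmp genes lies together on mouse chromosome 9 in the RefSeq gene order (at most 2 other protein-coding genes between neighbours), in the order Mmp13, Mmp12, Mmp1b, Mmp3, Mmp1a, Mmp10, Mmp8, Mmp27, Mmp20 and Mmp7. Between HC and EC 3 of the 10 were called higher in HC (Mmp8, Mmp12 and Mmp13) and 0 lower in HC (limma, and 0 of the 10 also fell at an unadjusted p under 0.05). Over all genes 14.8% were called higher in HC and 12.6% lower. Of the 3, Mmp8 alone had an HC mean above background, while Mmp12 and Mmp13 had every group mean at background. Promoters of Mmp genes are known to carry a binding site for AP-1, the Fos and Jun dimer that mediates many growth factor and inflammatory signals. The motif TGANTCA was searched on both strands in the 250 bases before each RefSeq transcription start (build GRCm38.p6), along with the Runx motif TGTGGT, each motif counted on its own. AP-1 letters stood in 8 of the 10 promoters of the chromosome 9 row, in 0 of the 7 Mmp promoters elsewhere that were matched, in 12 of 47 member genes with a promoter and in 7.82% of 27025 genes. Runx letters stood in 11 of the 47 and in 15.9% of all genes. The 8 sites are shown with 20 bases on either side, 5′ to 3′ on the gene's strand and with the motif in capitals, because they are a sequence feature that the row shares whether or not a gene showed a level.
Mmp13 (chr9:7272459-7272505, + strand, 35 bases before the start): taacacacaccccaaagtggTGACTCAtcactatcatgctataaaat
Mmp12 (chr9:7347310-7347356, + strand, 44 bases before the downstream of 2 RefSeq starts): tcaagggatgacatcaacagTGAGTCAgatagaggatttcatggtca
Mmp1b (chr9:7388093-7388139, - strand, 93 bases before): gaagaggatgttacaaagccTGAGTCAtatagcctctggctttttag
Mmp3 (chr9:7445756-7445802, + strand, 46 bases before): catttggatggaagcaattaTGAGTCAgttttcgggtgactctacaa
Mmp1a (chr9:7464048-7464094, + strand, 73 bases before): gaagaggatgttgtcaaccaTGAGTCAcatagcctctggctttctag
Mmp10 (chr9:7502259-7502305, + strand, 63 bases before): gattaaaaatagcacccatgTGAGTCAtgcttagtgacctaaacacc
Mmp20 (chr9:7628116-7628162, + strand, 95 bases before): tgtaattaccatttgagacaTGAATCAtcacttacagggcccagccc
Mmp7 (chr9:7692007-7692053, + strand, 63 bases before the upstream of 2 RefSeq starts): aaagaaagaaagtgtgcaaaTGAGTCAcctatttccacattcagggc
The windows of the other RefSeq start of Mmp12 and of Mmp7 lacked the letters. The other 2 genes of the row, Mmp8 and Mmp27, lacked these letters in their windows. Of these, Mmp8 was called higher in HC, while Mmp1a, Mmp1b and Mmp10, which held the letters, were at background in all 3 groups.

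The gelatinases, which cut denatured collagen and basement membrane collagen, differed in opposite directions. Mmp2 read 10.41, 10.07 and 10.31 on the EC arrays, 9.30, 7.80 and 8.57 on the HSPC arrays and 7.30, 6.77 and 6.96 on the HC arrays. The 3 groups did not overlap, with HSPC between the others. Mmp2 was 9.55-fold lower in HC than in EC (-3.26 ± 0.32 SE, adjusted p = 7.28e-05), 3.27-fold lower in HSPC than in EC (adjusted p = 0.00642) and 2.92-fold higher in HSPC than in HC (adjusted p = 0.0132). The last call was lost without HC replicate 2 (adjusted p = 0.0526) or HC replicate 3 (0.0504). Mmp9, the gelatinase of neutrophils and macrophages, read 4.59, 4.61 and 4.70 in EC, 5.10, 5.89 and 5.02 in HSPC and 5.54, 5.34 and 5.98 in HC. HC and HSPC arrays overlapped, and both lay above EC. Mmp9 was at least 1.90-fold higher in HC than in EC, whose mean was at background (adjusted p = 0.0126), and HSPC against EC gave an adjusted p of 0.0825.

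Membrane-type Mmp genes were lower outside EC in 3 of 5 cases (60.0%). Over all genes, 12.6% were lower in HC and 7.94% lower in HSPC than in EC. Mmp14 encodes MT1-MMP, which cuts collagen at the cell surface and activates the Mmp2 precursor. It read 9.45, 9.20 and 9.30 in EC, 8.01, 6.52 and 7.34 in HSPC and 6.51, 6.50 and 5.73 in HC. EC stood apart from both other groups, and the lowest HSPC array, replicate 2, came close to the HC arrays. Mmp14 was 8.41-fold lower in HC (-3.07 ± 0.35 SE, adjusted p = 0.000157) and 4.07-fold lower in HSPC (adjusted p = 0.00383) than in EC. HSPC and HC differed by 1.05 with a 95% interval of 0.26 to 1.83 (adjusted p = 0.0826), and without HSPC replicate 2 that difference was called, at 1.43 (adjusted p = 0.0096). Mmp25, the membrane-type enzyme known from neutrophils, read 5.75, 5.41 and 5.55 in EC and was at background in HSPC and HC. It was at least 1.84-fold lower in each of them (adjusted p = 0.000413 and 8.33e-05). Mmp16 stood just above background in EC, at 4.94 ± 0.05, and was at least 1.19-fold lower in HSPC (adjusted p = 0.0237) and in HC (adjusted p = 0.00352). The call for HSPC was lost without EC replicate 1 (adjusted p = 0.0804), EC replicate 3 (0.0695) or HSPC replicate 3 (0.0869).

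Of the remaining called Mmp genes, Mmp28 was highest in EC, Mmp19 and Mmp8 were above background in HC, and Mmp12, Mmp13 and Mmp3 had every group mean at background. Mmp28, or epilysin, read 7.31, 7.28 and 7.56 in EC, 6.03, 6.04 and 5.99 in HSPC and 5.16, 5.00 and 5.48 in HC. The 3 groups were separated, and the HSPC arrays lay close together. Mmp28 was 4.49-fold lower in HC (adjusted p = 4.27e-06) and 2.57-fold lower in HSPC (adjusted p = 0.000154) than in EC, and 1.75-fold higher in HSPC than in HC (adjusted p = 0.00352). Mmp19 is a secreted enzyme that acts on basement membrane proteins. It read 6.55, 6.10 and 6.19 in HC, against 4.88, 4.73 and 4.54 in EC and 4.74, 5.16 and 4.80 in HSPC. HC arrays stood above all others, while EC and HSPC overlapped. Mmp19 was 2.95-fold higher in HC than in EC (adjusted p = 6.95e-05) and 2.60-fold lower in HSPC than in HC (adjusted p = 0.000685).

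Mmp8, the collagenase stored in neutrophil granules, read 4.60, 5.24 and 4.70 in HC and between 3.13 and 3.56 on the other 6 arrays. It was at least 1.11-fold higher in HC than in EC (fitted 1.47 ± 0.17 SE, adjusted p = 0.000214) and than in HSPC (adjusted p = 0.000798), with both lower groups at background. All 8 neutrophil markers were higher in HC than in EC, with a summed level of 13.43 to 13.80 in HC, 10.37 to 11.04 in HSPC and 7.52 to 8.75 in EC, and Ngp, Ltf and Lcn2 were at background in EC and HSPC. Between HSPC and EC, only 1 of the 8 was called, higher in HSPC (12.5%, against 8.55% of all genes). The median difference over the 8 was 0.20 there, so the HSPC sum does not describe most of the list. The part of the neutrophil markers in the Mmp8 and Mmp9 values was not tested. Mmp12, the macrophage elastase, and the collagenase Mmp13 had all 3 group means at background, so no fold is given. Mmp12 was at 4.12 ± 0.25 in HC and 3.65 ± 0.03 in EC (adjusted p = 0.0159), a call that leaving out EC replicate 1, HC replicate 1 or HC replicate 2 ended (0.0522, 0.0581 and 0.06), while without HC replicate 3 HSPC was called lower than HC (adjusted p = 0.0236). Mmp13 was at 4.64 ± 0.33 in HC, 3.82 ± 0.35 in HSPC and 3.72 ± 0.12 in EC, and was called against EC (adjusted p = 0.00774) and HSPC (adjusted p = 0.0257). The second call was lost without HSPC replicate 1 (adjusted p = 0.0667) or 3 (0.0544) or HC replicate 1 (0.0837) or 3 (0.0784), and in the fit of only these 2 groups (0.0711). The stromelysin Mmp3 was called higher in HSPC than in EC at background, 3.82 ± 0.09 against 3.57 ± 0.05 (adjusted p = 0.0429), and lost the call without any single array other than HSPC replicate 1 (adjusted p = 0.053 to 0.14).

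**Figure D3:**
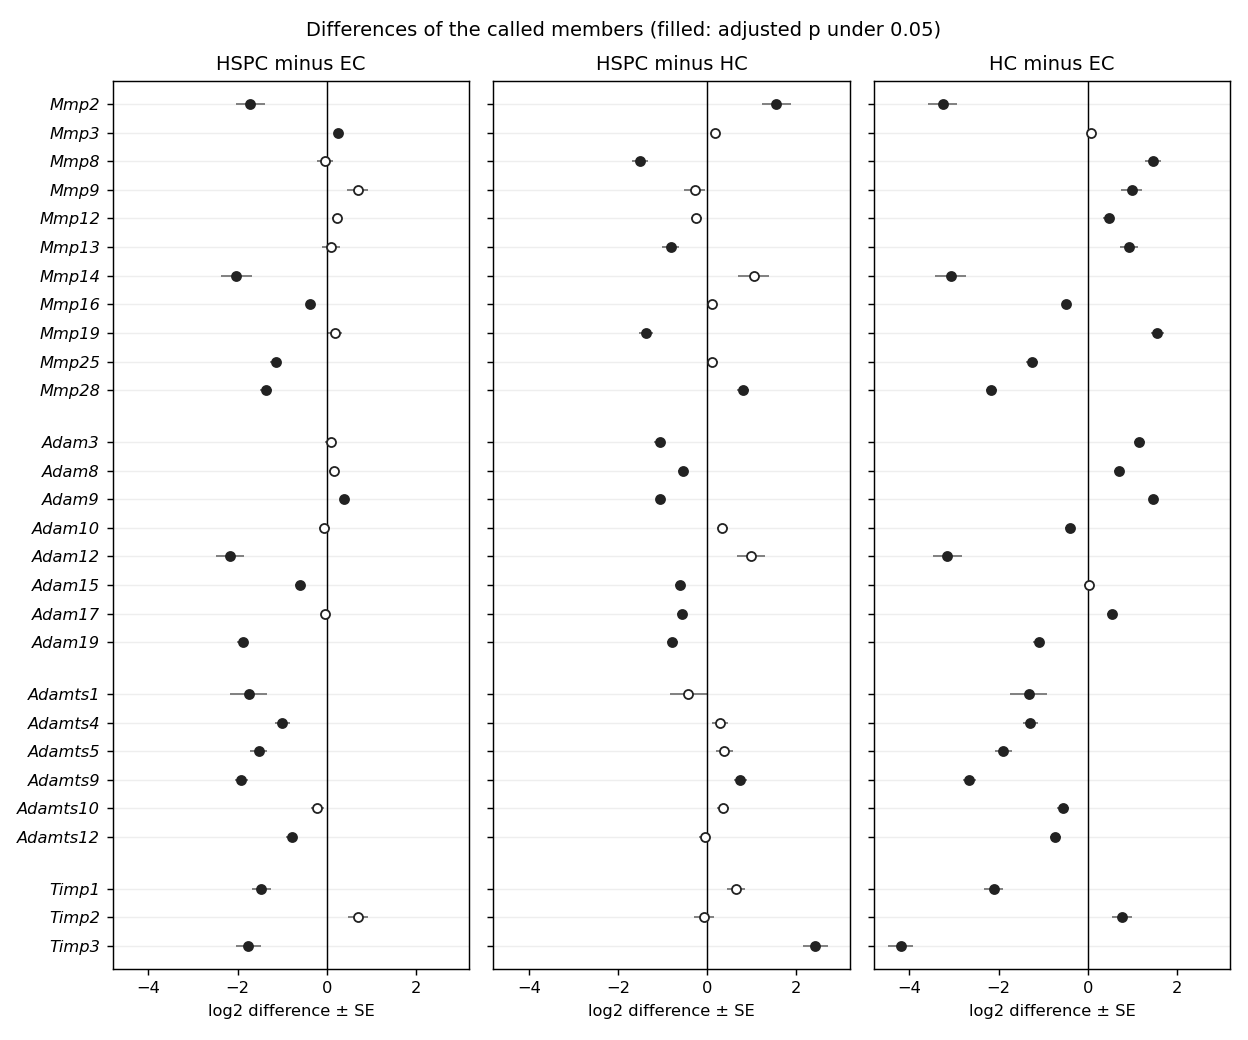
Log2 difference (x axis) with its standard error for the 28 called members in the 3 comparisons, 1 panel each, with filled circles for adjusted p under 0.05 and open circles otherwise. Timp3 differed by -4.19 between HC and EC and by 2.43 between HSPC and HC, and Adam15 and Adam19 are filled below 0 in both panels that involve HSPC.

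Among the 9 somatic ADAM sheddases, proteases that release membrane proteins, 6 differed between HC and EC, 3 in each direction. That is 66.7% called, against 27.4% of all genes and 21.2% of the whole Adam family (7 of 33). Of these 9 sheddases, 8 rose above background in at least 1 group. Between HSPC and HC, 5 of the 9 were lower in HSPC (55.6%, against 7.61% of all genes) and 0 higher (limma, with 2 higher at an unadjusted p under 0.05). Adam9, a widely expressed sheddase, read 6.69, 6.57 and 6.78 in EC, 6.98, 7.23 and 7.02 in HSPC and 8.12, 8.19 and 8.11 in HC. The groups rose in that order without overlap. Adam9 was 2.75-fold higher in HC than in EC (1.46 ± 0.09 SE, adjusted p = 4.65e-06), 1.32-fold higher in HSPC than in EC (adjusted p = 0.0131) and 2.09-fold lower in HSPC than in HC (adjusted p = 0.000155). Adam8, an ADAM of granulocytes and macrophages, read 5.64, 5.44 and 5.61 in HC against 4.68 to 5.10 on the other arrays. It was 1.63-fold higher in HC than in EC (adjusted p = 0.00119) and 1.47-fold lower in HSPC than in HC (adjusted p = 0.011). The summed level of macrophage markers was 13.85 to 13.96 in HC, 11.59 to 13.23 in HSPC and 7.88 to 8.47 in EC, all 8 markers being higher in HC than in EC, with Adgre1 and Fcgr3 at background in EC. Their part in the Adam8 and Adam9 values was not tested.

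Adam17 encodes TACE, which releases tumour necrosis factor, and Adam10 the sheddase that cuts ligand-bound Notch receptors. Adam17 read 8.90, 8.87 and 8.95 in HC, 8.48, 8.25 and 8.36 in EC and 8.32, 8.52 and 8.15 in HSPC. HC stood above both, and EC and HSPC overlapped. Adam17 was 1.46-fold higher in HC than in EC (adjusted p = 0.00335) and 1.49-fold lower in HSPC than in HC (adjusted p = 0.00624), and HSPC differed from EC by -0.03, with a 95% interval of -0.26 to 0.20. Adam10 read 9.18, 9.06 and 9.0 in EC, 9.29, 8.93 and 8.86 in HSPC and 8.60, 8.66 and 8.80 in HC. HC lay below the others, and EC and HSPC overlapped. It was 1.31-fold lower in HC than in EC (adjusted p = 0.0341), a call lost without any of the 3 EC arrays or without HC replicate 1 or 2 (adjusted p = 0.0535 to 0.115), and HSPC differed from EC by -0.05, with a 95% interval of -0.32 to 0.21. After repeated quantile normalization Adam10 was also called higher in HSPC than in HC (adjusted p = 0.0428).

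Adam12, an ADAM known from mesenchymal cells and growing tissue, read 8.21, 8.04 and 8.18 in EC, 6.75, 5.43 and 5.76 in HSPC and 5.46, 4.80 and 4.72 in HC. EC stood apart, and HSPC and HC overlapped. Adam12 was 8.87-fold lower in HC (adjusted p = 7.87e-05) and 4.48-fold lower in HSPC (adjusted p = 0.0017) than in EC, and without HSPC replicate 2 it was also called higher in HSPC than in HC (1.26, adjusted p = 0.0271). Of 9 mesenchymal and mural markers, 0 were called between HC and EC (limma; 1 higher and 0 lower at an unadjusted p under 0.05). Between HSPC and EC 1 was called lower in HSPC (Col3a1, -0.43, with 3 lower and 1 higher at an unadjusted p under 0.05), and between HSPC and HC 1 was lower in HSPC (Pdgfrb, -0.45, again with 3 lower and 1 higher). Their summed level ranged from 8.84 to 9.45 (EC), 8.75 to 9.37 (HSPC) and 8.86 to 9.27 (HC), and Dcn alone of the list was at background in EC and HSPC. Their part in the Adam12, Mmp2 and Mmp14 values was not tested.

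A pair of sheddase genes, Adam15 and Adam19, was lowest in HSPC, called lower there than in both EC and HC, as were 0.495% of all genes. Adam19, which processes neuregulins and is needed for heart valve formation in mice, read 7.13, 6.77 and 6.85 in HSPC, 7.71, 7.72 and 7.68 in HC and 8.85, 8.60 and 8.97 in EC. The groups did not overlap. It was 3.70-fold lower in HSPC than in EC (-1.89 ± 0.12 SE, adjusted p = 1.64e-05), 1.72-fold lower in HSPC than in HC (adjusted p = 0.00282) and 2.15-fold lower in HC than in EC (adjusted p = 0.000108). Adam15, an ADAM with an integrin-binding motif that endothelial cells express, read 7.89, 8.32 and 8.08 in HSPC, 8.71, 8.64 and 8.74 in EC and 8.77, 8.63 and 8.76 in HC. HSPC stood below the other groups, which overlapped. Adam15 was 1.52-fold lower in HSPC than in EC (adjusted p = 0.00435) and 1.54-fold lower than in HC (adjusted p = 0.00502), and HC and EC differed by 0.02 (95% interval -0.22 to 0.26). Both calls of each gene held without every single array. Highest in HSPC were 0 members by limma (1 at an unadjusted p under 0.05 in both comparisons, Mmp3), where 1.27% of all genes were.

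Adam3, a sperm protein without protease activity, was the exception among the reproductive ADAM genes. It read 4.83, 5.10 and 5.22 in HC and 3.82 to 4.21 on the other 6 arrays, which puts HC above background and both other groups under it. It was at least 1.28-fold higher in HC than in EC (fitted 1.16 ± 0.13 SE, adjusted p = 0.000122) and than in HSPC (adjusted p = 0.000853). Adam3 lies in a row of 5 neighbouring Adam genes on chromosome 8 with Adam18, Adam5, Adam32 and Adam9, of which Adam9 was the other called gene, and 3 were at background in all groups. Of 6 germ cell markers 0 were called between HC and EC (limma; 0 at an unadjusted p under 0.05), and their summed level was 6.58 to 6.70 in HC, 6.38 to 6.66 in HSPC and 6.42 to 6.51 in EC.

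Of the 18 ADAMTS genes, 6 were called lower in HC than in EC and 5 lower in HSPC than in EC. These are 33.3% and 27.8%, against 12.6% and 7.94% of all genes. In either comparison 0 were higher (limma, and 0 at an unadjusted p under 0.05 as well). Most of the called genes were proteoglycanases, which cut versican and aggrecan. Of 7 proteoglycanase genes, 4 were called lower in both comparisons and the other 3 were at background in all groups. Adamts9 read 7.95, 7.67 and 8.05 in EC, 6.11, 5.72 and 6.11 in HSPC and 5.42, 5.14 and 5.15 in HC. The groups did not overlap, and HSPC lay between. Adamts9 was 6.30-fold lower in HC (-2.65 ± 0.14 SE, adjusted p = 3.07e-06) and 3.77-fold lower in HSPC (adjusted p = 4.73e-05) than in EC, and 1.67-fold higher in HSPC than in HC (adjusted p = 0.00928). Adamts5, the aggrecanase of cartilage breakdown, read 5.98, 5.21 and 5.89 in EC and was at background elsewhere, at least 2.0-fold lower in HSPC (adjusted p = 0.000773) and in HC (adjusted p = 7.75e-05). Its neighbour on chromosome 16, Adamts1, read 9.74, 8.79 and 8.51 in EC, 7.67, 6.39 and 7.72 in HSPC and 7.99, 7.79 and 7.29 in HC. HSPC and HC overlapped below EC. Adamts1 was 3.37-fold lower in HSPC than in EC (adjusted p = 0.0193), a call lost without EC replicate 1 (adjusted p = 0.0632) or in the fit of only the 2 groups (0.0604), and 2.51-fold lower in HC (adjusted p = 0.0433), a call lost without EC replicate 1 or 2 or any HC array (adjusted p = 0.0659 to 0.147).

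The other called ADAMTS genes were Adamts4, Adamts12 and Adamts10. Adamts4, an inducible aggrecanase, read 6.63, 6.24 and 6.84 in EC, 5.63, 5.40 and 5.69 in HSPC and 5.17, 5.10 and 5.58 in HC, and was 2.44-fold lower in HC (adjusted p = 0.000481) and 2.0-fold lower in HSPC (adjusted p = 0.00427) than in EC. Adamts12 had means of 5.84 ± 0.26 (EC), 5.05 ± 0.08 (HSPC) and 5.11 ± 0.12 (HC), 1.73-fold and 1.66-fold lower than in EC (adjusted p = 0.00295 and 0.00236). Adamts10, which is linked to fibrillin microfibrils, had means of 7.15 ± 0.25 (EC), 6.94 ± 0.19 (HSPC) and 6.59 ± 0.04 (HC). It was 1.47-fold lower in HC than in EC (adjusted p = 0.0135), a call lost without EC replicate 1 (adjusted p = 0.0523). Adamts13, which trims von Willebrand factor, stayed at background in all groups, at 4.28 to 4.75.

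Of the 4 inhibitors, 2 were lower and 1 was higher in HC than in EC. That comparison called 12.6% of all genes lower and 14.8% higher in HC. Timp3, the inhibitor that binds the extracellular matrix and also blocks ADAM17, read 10.56, 10.48 and 10.44 in EC, 9.13, 8.18 and 8.88 in HSPC and 6.77, 6.36 and 5.77 in HC. The groups were far apart, and the EC arrays lay close together. Timp3 was 18.3-fold lower in HC than in EC (-4.19 ± 0.28 SE, adjusted p = 8.4e-06), 3.40-fold lower in HSPC than in EC (adjusted p = 0.00264) and 5.38-fold higher in HSPC than in HC (adjusted p = 0.000798). Timp1, a secreted inhibitor with growth factor activity, read 6.66, 6.31 and 6.58 in EC, 5.38, 4.56 and 5.21 in HSPC and 4.67, 4.23 and 4.33 in HC. It was 2.77-fold lower in HSPC (adjusted p = 0.00153) and at least 3.55-fold lower in HC (adjusted p = 7.41e-05) than in EC, and without HSPC replicate 2 it was called higher in HSPC than in HC (0.89, adjusted p = 0.00642). Timp2, which also takes part in Mmp2 activation by MT1-MMP, went the other way, at 7.40, 6.66 and 6.68 in EC, 7.43, 8.01 and 7.40 in HSPC and 7.82, 7.58 and 7.66 in HC. It was 1.71-fold higher in HC than in EC (adjusted p = 0.0316). That call was lost without EC replicate 2 or 3 or any HC array (adjusted p = 0.0607 to 0.109), while without EC replicate 1 Timp2 was called higher in HSPC than in EC (0.95, adjusted p = 0.0127).

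The spread between HSPC arrays followed a common order in many members. Of the 15 members called lower in HSPC than in EC, HSPC replicate 1 gave the highest HSPC value in 9 and HSPC replicate 2 the lowest in 11. Of the 9 members called lower in HSPC than in HC, replicate 1 gave the lowest value in 7 and replicate 2 the highest in 7. The endothelial marker sum was highest on HSPC replicate 1 and lowest on replicate 2, and the macrophage and neutrophil sums were lowest on replicate 1 and highest on replicate 2. The order of the HSPC arrays was not counted over all called genes and is not shown to be particular to the members. The part of these markers in the members' values was not tested. The HSPC mean lay between the EC and HC means in 13 of the 16 members called lower in HC than in EC and in 8 of the 10 called higher. The same count was not made over all genes called between HC and EC, so it is not shown to be a trait of the members.

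Genes that act with the sheddases were read from lists of pathway genes. Adam17 needs an iRhom protein (Rhbdf1 or Rhbdf2) for its transport, and Adam10 works with tetraspanins. Of 9 partner genes 4 were lower and 2 higher in HC than in EC (44.4% and 22.2%, against 12.6% and 14.8% of all genes). Tspan15, a tetraspanin partner of ADAM10, had means of 6.54 ± 0.61 (EC), 5.20 ± 0.14 (HSPC) and 4.71 ± 0.13 (HC), a difference of -1.82 between HC and EC (adjusted p = 0.000574). The iRhom genes moved in opposite directions: Rhbdf1 was at 7.10 ± 0.07, 5.99 ± 0.17 and 5.45 ± 0.14 in EC, HSPC and HC (HC against EC -1.65, adjusted p = 6.85e-06). Rhbdf2, the iRhom of blood cells, was at 6.50 ± 0.18, 6.80 ± 0.41 and 7.22 ± 0.23 (0.72, adjusted p = 0.0281, lost without EC replicate 1 or 3 or HC replicate 1 or 2, at 0.0614 to 0.102). The tetraspanins Tspan17 (-0.66, adjusted p = 0.0235) and Tspan33 (at least 0.41 higher in HC, adjusted p = 0.0169) were also called. Tspan14, the remaining called partner, was named after its values were seen. It was lower in HC than in EC (-0.58, adjusted p = 0.00346) and higher in HSPC than in HC (0.59, adjusted p = 0.00742). Leaving out EC replicate 2 or HC replicate 1 ended the Tspan17 call (adjusted p = 0.0524 and 0.0867), and leaving out EC replicate 2 or 3 or HC replicate 3 ended that of Tspan33 (0.0538 to 0.0591).

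Of 25 measured genes whose proteins ADAM10 or ADAM17 are known to release, 15 were lower and 8 higher in HC than in EC, and 11 were lower and 9 higher in HSPC than in EC. That is 92.0% and 80.0% called, against 27.4% and 16.5% of all genes. The list holds Cdh5, Kdr, Tek, Tie1 and Csf1r, which also serve as cell type markers here. Their part in its counts was not tested. The differences between HC and EC with the largest size were Csf1r, the macrophage growth factor receptor (6.08), Cdh5 (-5.90), and the vascular receptors Kdr (-5.36) and Tek (at least 5.16 lower in HC). The genes higher in HC were Csf1r, Tnf (3.55), Il6ra (3.42), Tnfrsf1b (3.09), Mertk (3.07), Cd44 (2.62), Notch2 (2.12) and Axl (0.89), of which Axl lost its call without any array of EC or HC (adjusted p = 0.0538 to 0.131). Tnf, which ADAM17 releases, read 9.26, 9.06 and 8.59 in HC, 6.58, 8.61 and 8.10 in HSPC and 6.02, 5.02 and 5.23 in EC.

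**Figure D4:**
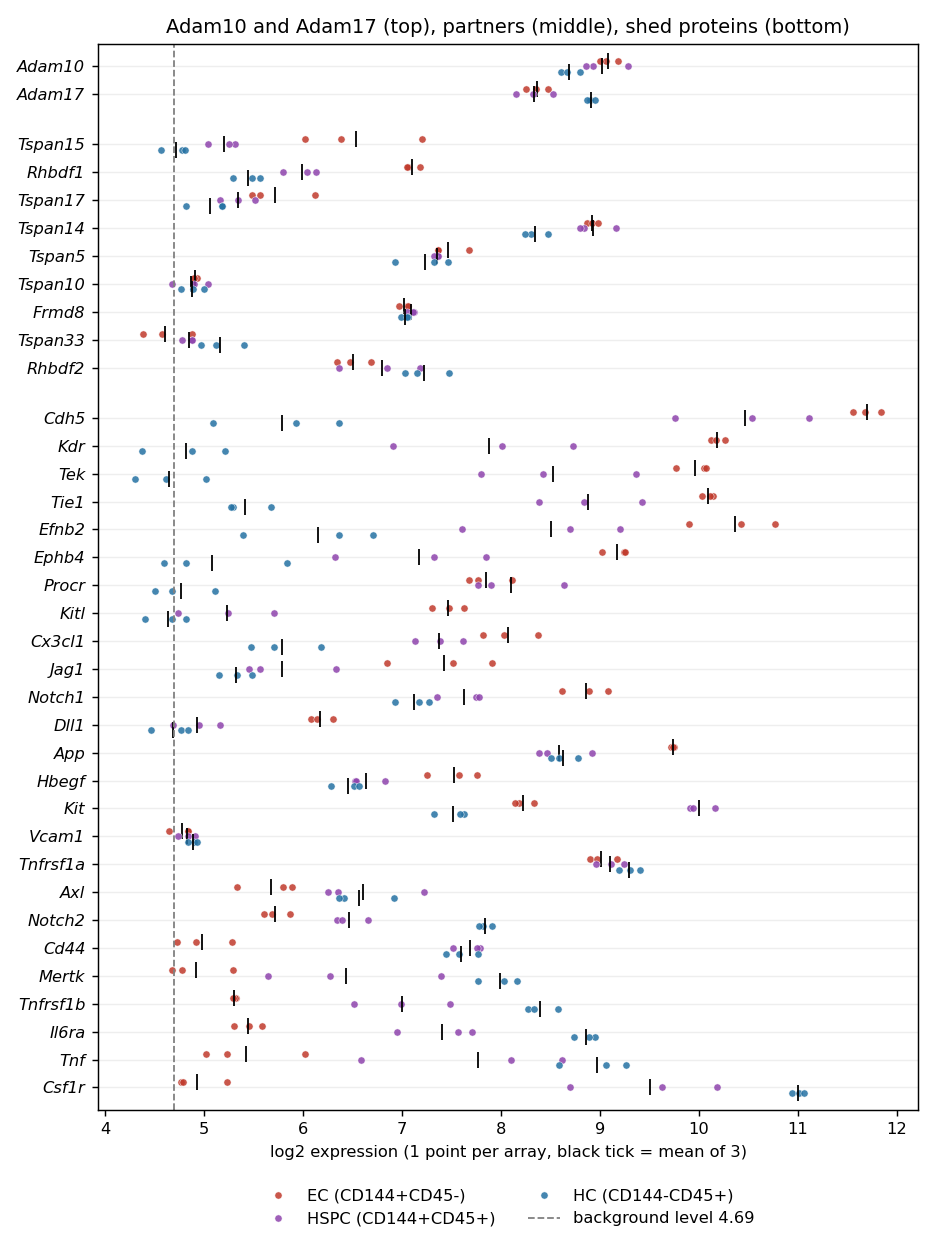
Log2 expression (x axis) on each array for Adam10 and Adam17 (top rows), 9 partner genes (middle) and 25 genes of shed proteins (bottom), with points coloured by group, black ticks at group means and a dashed line at the background level of 4.69. Rows within a block run from the lowest to the highest difference of HC minus EC, from Cdh5 at -5.90 to Csf1r at 6.08 in the bottom block, while Adam10 and Adam17 differed by -0.39 and 0.54.

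Other activators and inhibitors of metalloproteinases were called in 9 of 15 cases between HC and EC, 5 lower and 4 higher (60.0% called, against 27.4% of all genes). Reck, a membrane-anchored inhibitor of MMP and ADAM proteases that vessel development requires in mice, read 7.99, 8.05 and 7.93 in EC, 7.12, 6.53 and 7.02 in HSPC and 6.05, 6.00 and 5.42 in HC. It fell by 2.17 from EC to HC (adjusted p = 3.7e-05) and by 1.10 from EC to HSPC (adjusted p = 0.00432), with no overlap between groups. Lcn2, which binds and stabilises MMP9 and is also in the neutrophil marker list, was at least 4.10 higher in HC, and Thbs1, a matrix protein that binds MMP2 and MMP9, was 1.72 higher (adjusted p = 0.000811). Plat, the tissue plasminogen activator, was 1.13 lower on the log2 scale in HC, at 4.71 ± 0.27 against 5.85 ± 0.43 (adjusted p = 0.00385). Plaur, the urokinase receptor, was higher in HC (0.79, adjusted p = 0.00818), and Serpinb2, a plasminogen activator inhibitor, was called at background, 4.64 ± 0.45 in HC against 3.92 ± 0.09 in EC (adjusted p = 0.0238). The Serpinb2 call was lost without EC replicate 1 or 3 or HC replicate 2 (adjusted p = 0.0593 to 0.0758). Plau, the urokinase that starts plasmin formation, was named after its values were seen: it read 7.51, 8.34 and 8.03 in HSPC against 9.18, 9.27 and 9.08 in EC and 9.01, 8.90 and 8.93 in HC, lower in HSPC than in both (-1.22 and -0.99, adjusted p = 0.00158 and 0.00648).

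Among 19 relatives and substrates of ADAMTS proteases, 4 were lower in HC than in EC and 0 higher (limma; 0 higher at an unadjusted p under 0.05). The share called lower was 21.1%, against 12.6% of all genes called lower and 27.4% called in either direction. The called genes were Hapln1, which links hyaluronan to proteoglycans (-4.66, adjusted p = 9.51e-05), Vwf, the platelet adhesion protein that ADAMTS13 cuts (-3.98, adjusted p = 2.12e-05), the fibronectin gene Fn1 (-3.08, adjusted p = 5.88e-05) and the fibulin gene Fbln1 (-1.95, adjusted p = 9.85e-06). All 4 were also higher in HSPC than in HC (21.1% of the 19, against 7.01% of all genes). Versican, a main substrate of ADAMTS1, ADAMTS5 and ADAMTS9, had means of 6.70 (EC), 5.37 (HSPC) and 6.42 (HC) (Vcan, adjusted p of 0.103 or more in each comparison).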

How the data were processed

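RNA from 9 samples was measured on Affymetrix mouse gene arrays after amplification from nanogram amounts, per the labels' protocols, which name both a Mouse Gene 1.0 ST and a 2.0 ST array. The authors deposited log2 values for each probe set on each array. RMA and Partek, without versions, are named per the submitters' processing notes. RMA's shared scale hides a change in total RNA and compresses differences of weak genes. Which array description and genome build the probe sets rest on is not given in the sources used here.

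Of 21115 probe sets, 20405 had 1 gene symbol in the platform annotation, 0 had several and 710 had none; the last were left out. All 77 members matched the RefSeq table (GRCm38.p6) by Entrez number with the same symbol. The deposited log2 values were fitted with limma 3.58.1 in R 4.3.3 (lmFit, eBayes, two-sided), a mean per group over all 9 arrays, with 6 residual and 2.75 prior degrees of freedom and Benjamini-Hochberg adjustment over 20405 genes. The fit was tested on simulated data. An exact permutation test of 3 against 3 has a smallest two-sided p of 0.1. Where a lower group's mean was at or under 4.69, the difference is a bound: the higher mean against the lower group's mean with values under 4.69 raised to it. For arrays, their number limits the precision.

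Members, lists and tests were chosen with earlier results of these data known. Every member called in a comparison is named with values, and of each pathway list the 4 called genes with the largest difference between HC and EC and those called against the list's majority. Marker sums are the log2 of summed linear values. RefSeq promoters were matched for 47 members. A planned motif search in member proteins was not run. Alternatives were repeated quantile normalization, median centring, leaving out dim genes, trend and robust options, 2-group fits, a replicate block, array weights, an adjusted p threshold of 0.01, the 99th percentile as background and leaving out each array; the same was added for the pathway genes after the data were seen.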

Additional observations from a re-analysis of the deposited data

How the results depend on the processing

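No called member reversed direction under the alternatives run; of the values of the 28 called members, 1353 kept their side of the threshold, 56 lost a call and 10 gained one. Mmp11, Adamts7 and Adamts18, called in no comparison, gained calls under several settings besides. The number of members called was within 1.5 times its main value in every comparison and setting. The count higher in HSPC than in EC, 2 genes (Adam9 and Mmp3), was 1 after median centring, 1 in the fit of only the 2 groups and 0 at an adjusted p threshold of 0.01, and 1 to 2 over the fits that left out a single array, with Mmp3 lost in each of these settings and Adam9 lost as well at 0.01; the exceptions are the fit without HSPC replicate 1, which kept Mmp3, and that without EC replicate 1, which gained Timp2. The count higher in HSPC than in HC, 4 genes, ran from 3 to 7 over those fits, with 7 without HSPC replicate 2. With the replicate block the count higher in HSPC than in EC was 1. Whether the replicate numbers pair the samples is not known. Correlations of same-numbered arrays' deviations ran from -0.0417 to 0.145, against -0.143 to 0.147 for different numbers. Not every array correlated best with its own number, and these values cannot settle the pairing. The block moved the members called from 17 to 19 (HSPC against EC), 13 to 14 (HSPC against HC) and 26 to 28 (HC against EC). It ended the calls of Mmp3 (HSPC against EC) and Mmp13 (HSPC against HC, adjusted p = 0.0558), and added Adamts7, Adamts18 and Mmp11 (HSPC against EC), Adam12 and Timp1 (HSPC against HC), and Adamts18 and Mmp11 (HC against EC). With the 99th percentile of receptor genes as background, 5.77, the called members whose lower group lay at background numbered 7 in place of 4 for HSPC against EC, 7 in place of 3 against HC, and 16 in place of 9 between HC and EC, so that more differences would be bounds. Signal near background limits the dim members, among them Mmp3, Mmp12 and Mmp13. Planned motifs in member proteins were not searched.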
